A study of Mus musculus with 6 samples.

Results

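The genes described here are Myc, which encodes a transcription factor, and 40 genes for proteins that make ribosomes: nucleolar proteins, subunits and factors of RNA polymerase I, and factors that assemble the small and large ribosomal subunits. They were taken by gene symbol from the expression table. No measured value enters that rule, but the set was drawn up with results of these data already known. All 41 were found among its 20591 genes, and all 41 were expressed highly enough to be tested. The RNA came from colon B cells, isolated by sorting, of mice given lenvatinib, an inhibitor of several receptor tyrosine kinases including those for vascular endothelial growth factor, or DMSO, the solvent control. There were 3 RNA sequencing libraries in each group, which the labels call biological replicates. Strain, age, dose, duration and any induction of colitis are not given in the sources used here, and no source says whether each library stands for its own mouse. All p-values below rest on the spread between libraries, part of which may be technical.

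Myc dimerises with Max and binds E-box sequences near gene starts, and it activates many genes for growth and protein synthesis. Ribosomes are built in the nucleolus: RNA polymerase I transcribes the ribosomal RNA precursor, small nucleolar ribonucleoproteins guide its chemical modification, and assembly factors cut, fold and package it into the 2 subunits. In B cells, Myc rises after activation by antigen and T cell help, and ribosome production rises with cell growth.

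Values are given as scaled FPKM, fragments per gene relative to its length and to all fragments of the library, then scaled between libraries. A change is the difference between groups in log2(scaled FPKM + 1), with its standard error (SE). It understates the change of genes with low values. A gene is said to have risen or fallen where its p from limma, adjusted by the Benjamini-Hochberg method over the 9937 genes tested, was under 0.05. Library totals worked out from the FPKM steps lay between 26635279 and 31655500 reads, and a member had between 542 and 50757 reads in a library. Of all genes tested, 10.4% rose and 8.21% fell. All 3 lenvatinib libraries lay above all 3 DMSO libraries for 18.9% of genes, and below them for 18.2%.

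Markers of B cells were abundant in every library, but their sum was lower with lenvatinib, at 2411 to 2451 scaled FPKM against 2886 to 2925 with DMSO, and 11 of the 12 fell. Plasma cell markers were also lower in sum, at 355 to 369.7 against 380.3 to 387, with 1 of 8 tested genes higher and 1 lower, while germinal centre B cell markers summed to 43.9 to 47.3 against 38.1 to 40.98, with 2 of 6 higher. Markers of several other cell types were higher. The sum of 11 T cell markers was 149.8 to 152 with lenvatinib against 48.6 to 52.6, with 7 of 10 tested genes higher. For 11 natural killer and innate lymphoid cell markers it was 118 to 125 against 26.4 to 29.5, and for 12 colon epithelial markers 59.9 to 64.0 against 14.2 to 14.6, with 7 of 7 tested genes higher in each list. Markers of macrophages and dendritic cells summed to 56.7 to 63.7 against 50.1 to 51.7, with 1 of 8 tested genes higher, and neutrophil markers to 11.7 to 17.1 against 6.38 to 7.48, with 2 of 3. Those of fibroblasts and endothelium stayed at 2.77 or less in every library, and none was tested. No marker was at 0 in all libraries, but 8 had a mean under 0.1 (Xcr1, Cxcr2, Ly6g, Mmp8, Pdgfra, Kdr, Vwf and Madcam1). The part of these differences in the results below was not tested. In these bulk libraries, fewer cells of a type and less RNA per cell cannot be told apart.

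Myc fell, while many of the genes that make ribosomes rose. Myc was measured at 169.9, 169.6 and 172 scaled FPKM in DMSO replicates 1, 2 and 3, and at 134, 134 and 136 in lenvatinib replicates 1, 2 and 3. The groups were far apart compared with the spread within each, since the libraries of a group differed by only a few units. An SD from 3 libraries is itself uncertain. That of Myc with DMSO was 0.756% of its mean, against a median of 4.49% over the 41 genes. With 9023 to 12644 reads of Myc in a library, counting noise alone would on average give a larger spread than this. The SE below, from limma, also draws on the spread of other genes. The mean of Myc went from 170.5 ± 1.29 (SD, n = 3) to 135 ± 0.989, so it fell by 20.97%. The change was -0.34 (SE 0.026, 95% interval -0.40 to -0.28, adjusted p = 3.47e-05 with limma). Myc was the only one of the 41 genes that fell, and by p it ranked first of the 41 and 98th of all genes tested. It fell under each of the 19 alternative settings. The change was smallest, at -0.10 (adjusted p = 0.013), when libraries were scaled to their B cell markers.

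Of the other 40 genes, 17 rose, 23 did not pass the threshold and none fell. The 17 made up 41.5% of all 41 genes, against 10.4% of all genes tested. The rises were modest, from 0.12 to 0.40 with a median of 0.24, or 9.08% to 34.2% of the DMSO mean. In 25 of the 41, or 61.0%, every lenvatinib library lay above every DMSO library, against 18.9% of all genes tested. Myc alone had the reverse order. The change was above 0 in 37 of the 41, with a median of 0.14, against 5120 of 9937 and a median of 0.01 over all genes tested. Because of how the set was drawn up, these shares are a description.

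**Figure D1:**
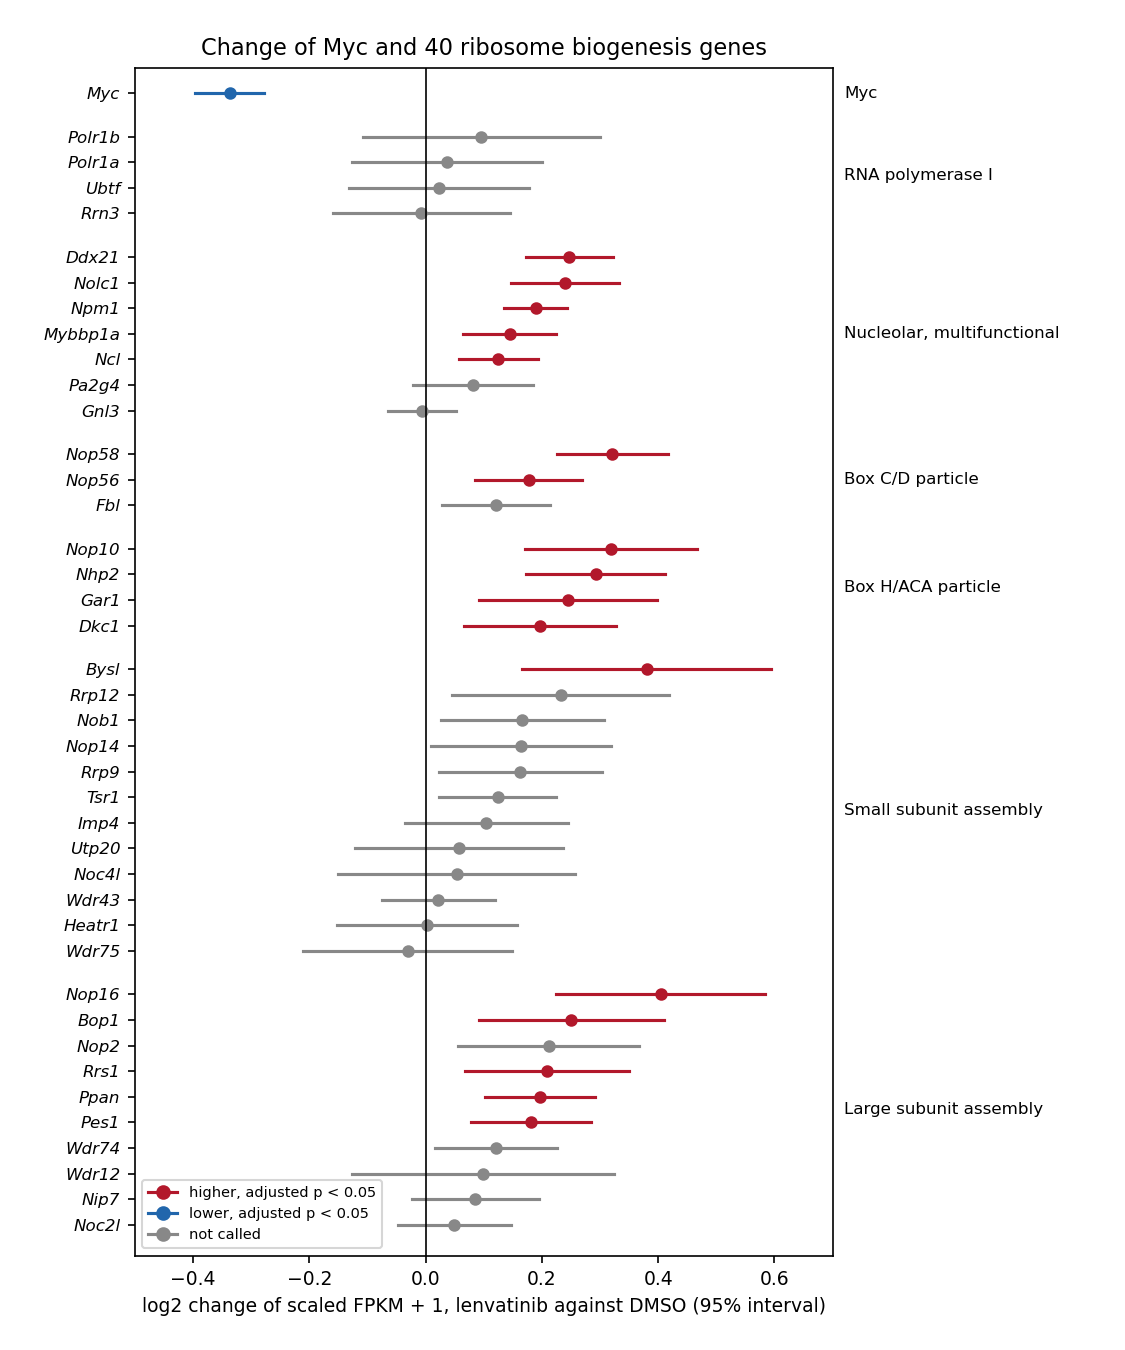
Change of each of the 41 genes with lenvatinib, as the difference in log2(scaled FPKM + 1) between the 3 lenvatinib and 3 DMSO libraries (points) with its 95% interval (lines), grouped by role. Myc lies at -0.34, the 17 genes that rose lie between 0.12 and 0.40, and grey genes did not pass the threshold.

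The 4 genes of ribosomal RNA transcription showed no change that passed the test, and none had an unadjusted p under 0.05. Polr1a and Polr1b encode the large catalytic subunits of RNA polymerase I, Rrn3 its initiation factor, and Ubtf a factor that binds the ribosomal RNA gene repeats. Polr1a was at 7.78, 7.57 and 7.40 scaled FPKM with DMSO and 8.25, 7.32 and 7.86 with lenvatinib, with overlapping groups. Its change was 0.04 (95% interval -0.13 to 0.20), that of Polr1b 0.10 (-0.11 to 0.30), that of Ubtf 0.02 (-0.13 to 0.18) and that of Rrn3 -0.01 (-0.16 to 0.15). These intervals still allow rises as large as the smaller ones among the other genes. Scaling to B cell markers, which moves the median of all tested genes from 0.01 to 0.22, put all 4 past the threshold.

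Among 7 nucleolar proteins with several functions, 5 rose. Npm1 encodes nucleophosmin, an abundant nucleolar chaperone, and had the highest level of the 41 genes. Its DMSO libraries were at 486, 483 and 470.1 scaled FPKM and its lenvatinib libraries at 549, 543 and 549. Every lenvatinib library was above every DMSO library, and the mean went from 479 ± 8.25 to 547 ± 2.93, a change of 0.19 (SE 0.024, adjusted p = 0.000676 with limma). Ddx21, an RNA helicase that acts in transcription and processing of ribosomal RNA, was at 80.9, 79.9 and 79.3 with DMSO and 93.5, 97.8 and 94.4 with lenvatinib. The libraries within each group lay close together and the groups were well apart, with a change of 0.25 (SE 0.033, adjusted p = 0.000883). Nolc1, a chaperone of small nucleolar ribonucleoproteins, was at 47.5, 47.2 and 46.0 with DMSO and 55.6, 57.5 and 53.7 with lenvatinib, a change of 0.24 (SE 0.041, adjusted p = 0.00358) without overlap.

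Ncl and Mybbp1a rose by less. Ncl encodes nucleolin, an abundant nucleolar protein that binds the ribosomal RNA precursor. It was at 170.02, 162 and 166 scaled FPKM with DMSO and 182, 177 and 185 with lenvatinib, a change of 0.12 (SE 0.030, adjusted p = 0.0199 with limma). Mybbp1a, a nucleolar protein that restrains ribosomal RNA synthesis, was at 59.9, 58.6 and 60.2 with DMSO and 64.5, 66.8 and 66.5 with lenvatinib, a change of 0.14 (SE 0.036, adjusted p = 0.0218). Neither pair of groups overlapped. Pa2g4, a growth regulator that binds ribosomes, did not pass (change 0.08, adjusted p = 0.257). Gnl3 encodes nucleostemin, a nucleolar GTPase, and was measured at 163, 160.5 and 159 with DMSO and 160.4, 160.25 and 160.3 with lenvatinib. Its libraries overlapped, and its change of -0.01 had a 95% interval of -0.06 to 0.05. With scaling to B cell markers Gnl3 was higher, at 0.24, as was Rrn3, at 0.23.

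**Figure D2:**
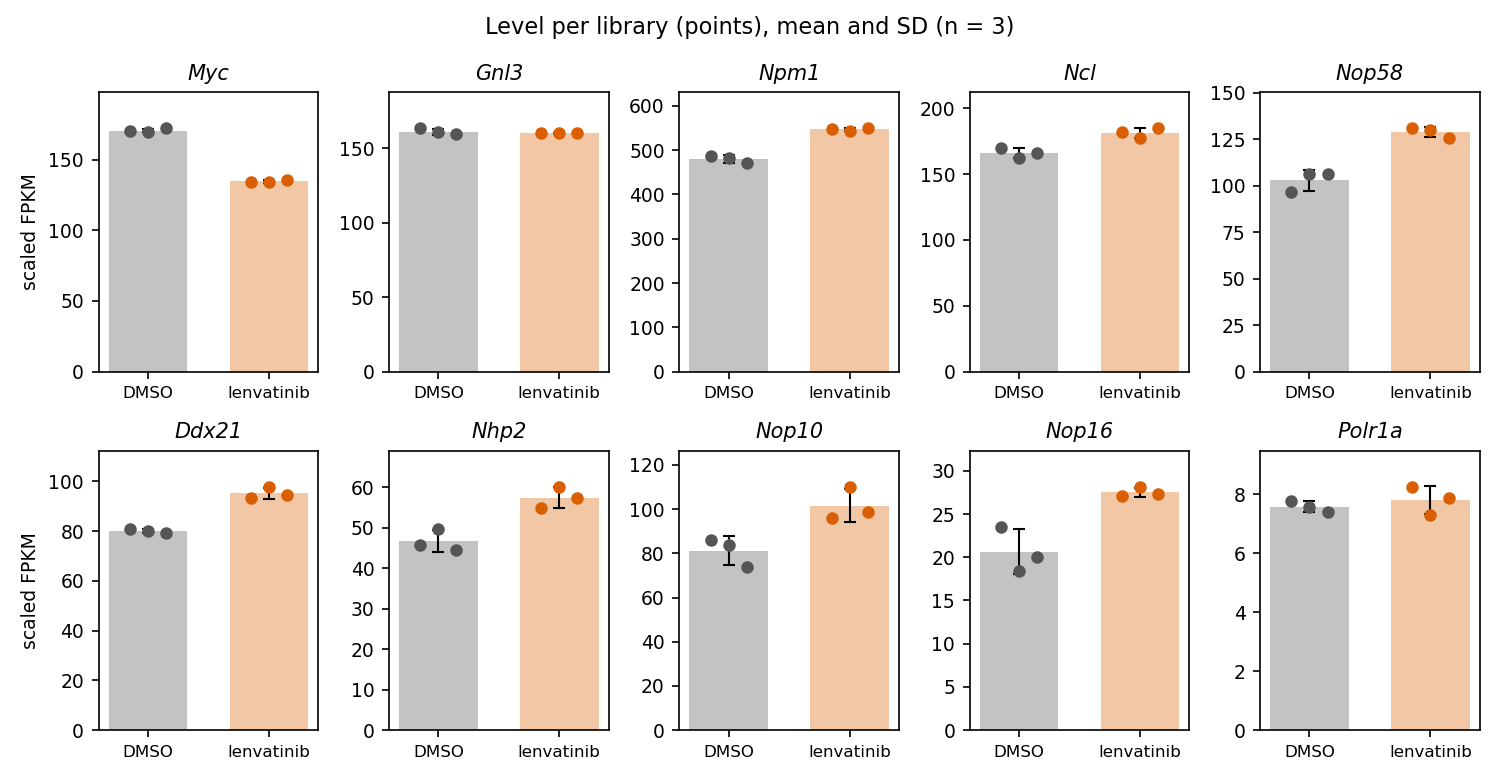
Scaled FPKM of 10 of the genes in each library (points), with the group mean (bars, from 0) and SD (error bars, n = 3). Myc is lower in every lenvatinib library, Gnl3 and Polr1a overlap between groups, and the other 7 genes are higher in every lenvatinib library.

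Small nucleolar ribonucleoproteins carry guide RNAs that place modifications on ribosomal RNA, and most of their core proteins rose. Box H/ACA particles make pseudouridine, and all 4 of their core genes rose, by 0.20 to 0.32. Nhp2 was at 45.7, 49.7 and 44.6 scaled FPKM with DMSO and 54.7, 60.01 and 57.3 with lenvatinib, and the groups did not overlap. Its change was 0.29 (SE 0.053, adjusted p = 0.00488 with limma). Nop10 was at 86.1, 83.6 and 74.0 with DMSO and 96.0, 110.0 and 98.7 with lenvatinib, also without overlap. Its change was 0.32 (SE 0.066, adjusted p = 0.00954). Gar1 was at 37.2, 34.0 and 34.5 with DMSO and 43.9, 44.5 and 37.7 with lenvatinib, so that its lowest lenvatinib library was close to its highest DMSO library. Its change was 0.25 (SE 0.068, adjusted p = 0.0343). Dkc1, the pseudouridine synthase itself, went from 24.4 ± 1.196 to 28.2 ± 1.501, with an adjusted p of 0.0444. The count of 4 was 2 without DMSO replicate 2, DMSO replicate 3 or lenvatinib replicate 2, and 3 without lenvatinib replicate 1 or 3, as Gar1, Dkc1 or both lost the call. It was 1 without the filter on low values.

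Box C/D particles place methyl groups on the ribose of ribosomal RNA, and 2 of the 3 core genes among the members rose. Nop58, a scaffold protein of the particle, was at 96.5, 106 and 106 scaled FPKM with DMSO and 131, 129.7 and 126 with lenvatinib. Its groups lay far apart, at 103 ± 5.63 and 129 ± 2.57, a change of 0.32 (SE 0.042, adjusted p = 0.00082 with limma). Nop56, the paired scaffold protein, was at 47.8, 46.9 and 46.4 with DMSO and 55.1, 51.6 and 53.2 with lenvatinib, a change of 0.18 (SE 0.041, adjusted p = 0.016). Fbl encodes fibrillarin, the methyltransferase. It went from 128 ± 6.99 to 139.6 ± 2.99 without overlap, but its change of 0.12 did not pass (adjusted p = 0.0738). Fbl was called in 4 of the 19 alternative settings. Snu13, the remaining core protein, is not among the 41 genes and was named after its values were seen. It went from 73.6 ± 4.05 to 78.9 ± 1.14 with overlapping groups and did not pass (change 0.10, adjusted p = 0.149).

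Of 10 genes for assembly of the large subunit, 5 rose, and the change was above 0 in all 10. Nop16 had the highest change of the 41 genes on the log2(scaled FPKM + 1) scale. Its mean rose by 33.3%, slightly less than the 34.2% of Bysl. Nop16 was at 23.5, 18.5 and 19.98 scaled FPKM with DMSO and 27.1, 28.1 and 27.3 with lenvatinib, so the DMSO libraries were the more variable ones. Its change was 0.40 (SE 0.080, adjusted p = 0.00754 with limma). Ppan, an early assembly factor, was at 69.1, 71.0 and 69.7 with DMSO and 78.0, 84.9 and 78.1 with lenvatinib, a change of 0.20 (SE 0.042, adjusted p = 0.0113) without overlap.

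Pes1, Bop1 and Wdr12 form the PeBoW complex, which is needed for processing of the ribosomal RNAs of the large subunit. Pes1 was at 39.2, 39.6 and 38.1 scaled FPKM with DMSO and 42.2, 45.8 and 45.1 with lenvatinib, a change of 0.18 (SE 0.046, adjusted p = 0.0231 with limma). Bop1 was at 19.99, 20.8 and 18.8 with DMSO and 25.2, 24.96 and 21.5 with lenvatinib, a change of 0.25 (SE 0.071, adjusted p = 0.0369). Both had groups that did not overlap, although lenvatinib replicate 3 of Bop1 was near the DMSO libraries. Wdr12, the member with the lowest level, went from 2.31 to 2.55 and did not pass (adjusted p = 0.546). Rrs1, which brings the 5S ribosomal RNA particle into the subunit, went from 36.5 ± 1.99 to 42.3 ± 3.13 (adjusted p = 0.0459). Nop2, a ribosomal RNA methyltransferase, went from 19.3 to 22.5 without overlap and did not pass (adjusted p = 0.0621), but it was called in 6 of the 19 alternative settings. Wdr74 (0.12, adjusted p = 0.106), Nip7 (0.09, 0.263) and Noc2l (0.05, 0.478) did not pass either.

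Of 12 genes for assembly of the small subunit, 1 rose, or 8.33%, near the 10.4% of all genes tested. Bysl encodes bystin, a factor of late small subunit maturation. It was at 5.78, 6.72 and 7.53 scaled FPKM with DMSO and 8.95, 8.47 and 9.46 with lenvatinib. Its level was low and its groups did not overlap, with a mean 34.2% higher and a change of 0.38 (SE 0.095, adjusted p = 0.0225 with limma). The other 11 did not pass, yet 11 of the 12 changes were above 0, against 5120 of 9937 over all genes tested. With limma, 6 of the 12 had an unadjusted p under 0.05 and a rise, against 1746 of 9937. Limma-voom on recovered reads called 3 of the 12 higher, and 1265 genes in all. The median change of the 12 was 0.11. Rrp12, a factor of subunit export (0.23, adjusted p = 0.0844), Tsr1 (0.12, 0.0879), Rrp9, a protein of the U3 particle (0.16, 0.102), and Nop14 (0.16, 0.133) had groups that did not overlap. Nob1, the nuclease that makes the final cut of the small subunit RNA, had groups that overlapped (0.17, 0.0968). Imp4, Utp20 and Noc4l lay between 0.05 and 0.10. Heatr1 (0.00, 95% interval -0.15 to 0.16), Wdr43 (0.02, -0.08 to 0.12) and Wdr75 (-0.03, -0.21 to 0.15), which act in the earliest small subunit particle, were the closest to 0. Whether the roles differed from each other in their response was not tested.

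The calls near the threshold depended on single libraries. Npm1, Nop58, Ddx21, Nolc1, Nhp2, Nop16, Nop10 and Ppan passed in all 6 fits that left out 1 library. The number of members that rose was 10 without DMSO replicate 2, 11 without DMSO replicate 3, 13 without DMSO replicate 1 and 12 without each lenvatinib replicate. Large subunit genes that rose numbered 2 without DMSO replicate 3, 4 without lenvatinib replicate 1 and 3 without any other library. The count of nucleolar proteins was 3 without DMSO replicate 2 or lenvatinib replicate 3, and 4 without any other library. Nop56 lost its call without DMSO replicate 3 (adjusted p = 0.0547 with limma) and lenvatinib replicate 1 (0.0603). Ncl lost it without DMSO replicates 2 (0.07) and 3 (0.0513) and lenvatinib replicates 1 (0.0618) and 3 (0.0631). Mybbp1a lost it without DMSO replicates 1 (0.0546) and 2 (0.073) and lenvatinib replicates 2 (0.0683) and 3 (0.0617). The call for Bysl ended without DMSO replicates 1 (0.0621) and 2 (0.0542) and lenvatinib replicates 1 (0.062) and 3 (0.0718). Pes1 was not called without DMSO replicates 1 (0.0595) and 3 (0.075) and lenvatinib replicates 2 (0.0797) and 3 (0.0704). For Gar1 the call ended without DMSO replicates 2 (0.101) and 3 (0.0986) and lenvatinib replicates 1 (0.112) and 2 (0.113). Bop1 was called only in the fit without lenvatinib replicate 3, with adjusted p from 0.0501 to 0.121 in the other fits. Dkc1 was not called without DMSO replicates 2 (0.129) and 3 (0.124) and lenvatinib replicates 2 (0.135) and 3 (0.0977). Rrs1 was not called without DMSO replicates 2 (0.112) and 3 (0.139) and lenvatinib replicates 1 (0.137) and 3 (0.0809). All 17 changes were above 0 in every one of these fits.

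The levels of the 41 genes covered a wide range. The mean over all 6 libraries was 513 scaled FPKM for Npm1 and 2.43 for Wdr12. A mean of at least 100 was reached by 6 genes, Npm1, Ncl, Gnl3, Myc, Fbl and Nop58, and 6 genes were under 10. With DMSO, Myc, Ncl and Gnl3 were near each other, at 170.5 ± 1.29, 166 ± 3.94 and 161 ± 1.99. With lenvatinib, Ncl at 181 ± 3.72 and Gnl3 at 160.3 ± 0.054 lay above Myc at 135 ± 0.989. The order of levels between genes rests on the lengths the authors used. The lengths implied by the FPKM steps were within 0.9 to 1.1 times the longest coding transcript in GENCODE M21 for 31 of the 41 genes, but that of Nop56 was 3.09 times as long and that of Nop58 only 0.230 times. The ratio of a gene's means between groups does not depend on length, but its change on the log2(scaled FPKM + 1) scale does so slightly where the level is low.

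The E-box that Myc and Max bind best has the letters CACGTG, which read the same on both strands. It was looked for in RefSeq promoter windows of mouse build GRCm38.p6, from 250 bases before the gene start to 50 bases from the start on. That build differs from the authors' GRCm39, so the windows serve only to show sequence. Windows were found for 35 of the 41 genes, all but Myc, Npm1, Bop1, Rrs1, Fbl and Rrp12. Of these 35 genes, 8 held the motif, or 22.9%, against 12.4% of 7959 tested genes with a window and 8.09% of all 27025 genes with one. A gene with several windows was counted once. The motif was in 2 of the 14 genes with a window that rose (14.3%), Mybbp1a and Pes1, and in 6 of the 21 that did not pass (28.6%). That split rests on the threshold: of those 6, limma-voom on recovered reads called Nop2 (adjusted p = 0.036) and Tsr1 (0.0372) higher. Whether the 2 shares differ was not tested. In Nop2, Imp4 and Rrn3 the motif lay before the start. Only these sites before the start are shown, with the E-box in capitals, and all lie in genes that did not pass the test. In Mybbp1a, Pes1, Tsr1, Utp20 and Wdr43 the motif lay at or after the start.
Nop2, chr6:125131811-125131840, plus strand: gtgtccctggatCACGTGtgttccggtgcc
Imp4, chr1:34439696-34439725, plus strand: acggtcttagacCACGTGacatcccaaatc
Rrn3, first site, chr16:13780472-13780501, plus strand: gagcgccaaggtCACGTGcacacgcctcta
Rrn3, second site, chr16:13780639-13780668, plus strand: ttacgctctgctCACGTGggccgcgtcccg
A match is a description of the letters, not a site of binding.

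Other genes of ribosome assembly were taken from general knowledge, with results of these data already known. In the reported fit they rose past the threshold about as often as genes in general, but fell less often. By the looser measures below, they were higher more often than genes in general. Of 125 tested, 15 rose, or 12%, which is near the 10.4% of all genes, and 1 fell, or 0.8% against 8.21%. Of the 125, 40 were higher and 5 lower without overlap of the groups, against 1882 (18.9%) and 1808 (18.2%) of all 9937. At an unadjusted p under 0.05 with limma, 38 of the 125 were higher and 6 lower, against 1746 and 1458 of all 9937. The median change of the 125 was 0.09, and 98 of the 125 changes were above 0. The number that rose was 8 without lenvatinib replicate 2 and between 10 and 15 without another library. No gene of 12 other RNA polymerase I subunits and factors passed, and 2 of the 12 had an unadjusted p under 0.05, both lower, while limma-voom called 0. Those with the smallest p were Tcof1 (28.5 to 26.0 scaled FPKM, adjusted p = 0.122 with limma), Polr1d (45.7 to 41.4, adjusted p = 0.144, and 0.0412 without DMSO replicate 2) and Polr1g (5.47 to 6.21, adjusted p = 0.198).

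Among 49 other large subunit factors, 9 rose (18.4%) and 1 fell (2.04%), against 10.4% and 8.21% of all genes tested. Rrp15 rose from 19.3 ± 0.670 to 29.2 ± 2.16 scaled FPKM, a change of 0.57 (SE 0.062, adjusted p = 0.000302 with limma). Eif6, which keeps the subunits apart until assembly ends, rose by 0.26 (adjusted p = 0.0044), and Las1l, which takes part in cutting the spacer RNA, by 0.22 (adjusted p = 0.0101). Both kept their calls whichever library was left out. Ddx24, an RNA helicase named after its values were seen, was the gene that fell, from 67.4 to 60.4 (change -0.16, adjusted p = 0.0203), but its change was 0.084 with scaling to B cell markers. It was not called without DMSO replicate 3 (adjusted p = 0.0656) or lenvatinib replicates 2 (0.0635) and 3 (0.0616).

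Among 43 other small subunit factors, 3 rose, or 6.98% against 10.4% of all genes tested. Wdr46 rose from 9.63 ± 0.614 to 14.0 ± 0.908 scaled FPKM (change 0.49, SE 0.073, adjusted p = 0.0016 with limma). Pwp2 rose by 0.21 (adjusted p = 0.0313) and Wdr36 by 0.22 (adjusted p = 0.0402). Both were called only when all 6 libraries or all but DMSO replicate 2 were used, with adjusted p from 0.0534 to 0.122 in the other 5 fits, and the count was 1 without DMSO replicate 1 or 3 and 5 without DMSO replicate 2. Of 10 factors that assemble small nucleolar ribonucleoproteins, 2 rose. These were Ruvbl2 (10.8 to 14.9, adjusted p = 0.0035) and Ruvbl1 (18.1 to 21.9, adjusted p = 0.0336), paired ATPases of the assembly chaperone. Ruvbl1 was called only when DMSO replicate 2, lenvatinib replicate 3 or no library was left out, with adjusted p from 0.091 to 0.108 in the other fits. Znhit6 did not pass (adjusted p = 0.124). Of 11 exosome subunits, which trim ribosomal RNA, Exosc2 rose (22.0 to 25.5, adjusted p = 0.0364), and in the 5 fits that left out a library other than lenvatinib replicate 3 it did not pass (adjusted p from 0.0572 to 0.115). Exosc3 (adjusted p = 0.118) and Exosc5 (0.154) did not pass.

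**Figure D3:**
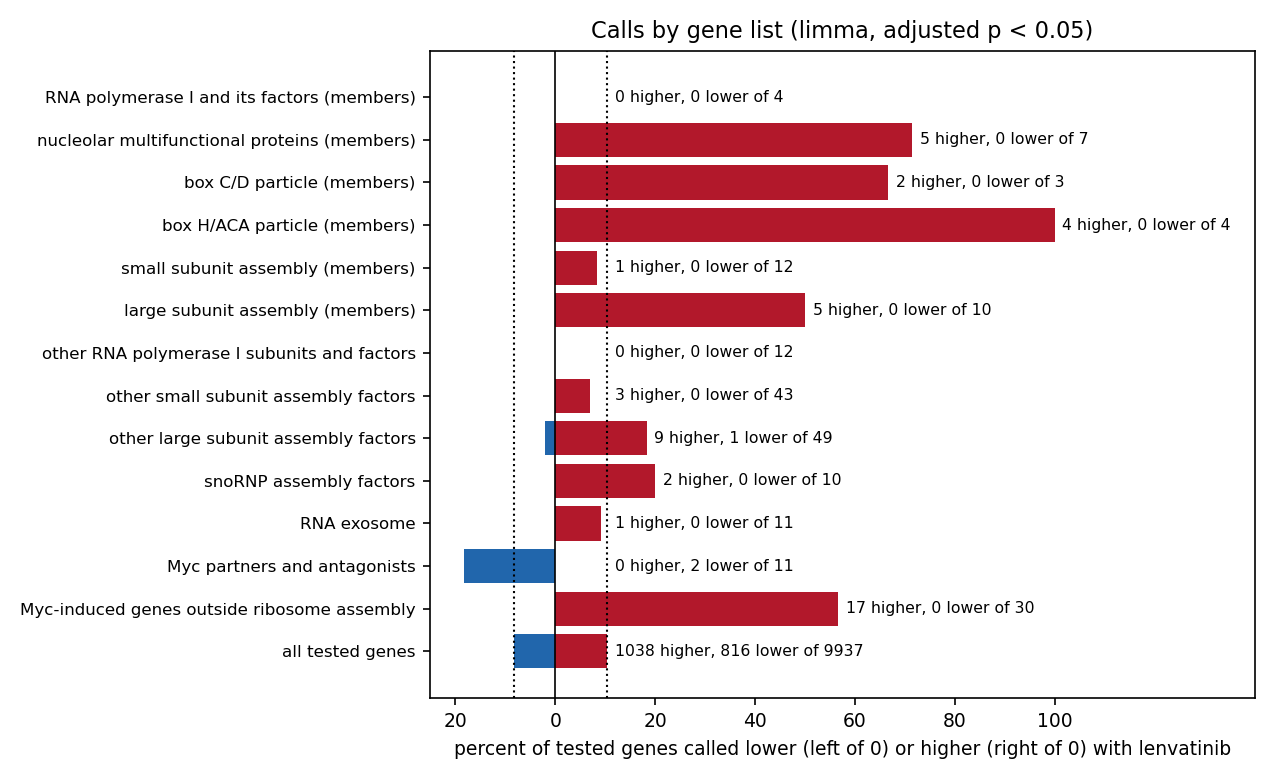
Share of the tested genes of each list that rose (right of 0) or fell (left of 0) with lenvatinib, in percent, with the counts beside each bar. Dotted lines mark the 10.4% higher and 8.21% lower of all tested genes. The lists of ribonucleoprotein, nucleolar and large subunit members lie above the upper line, and the lists of other assembly genes lie between 0 and 20%.

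A list of partners and antagonists of Myc, with genes of their wider network, had 11 tested genes. Of these, 2 fell, or 18.2% against 8.21% of all genes tested, and none rose. Mlxip, listed as a partner of Mlx in glucose sensing and not of Myc itself, fell from 49.7 ± 1.43 to 40.5 ± 0.846 scaled FPKM. Its change was -0.29 (SE 0.042, adjusted p = 0.0013 with limma). Mga, a Max partner that opposes Myc at E-boxes, fell from 6.67 to 5.33 (change -0.28, adjusted p = 0.0321). With scaling to B cell markers neither was called, at -0.05 and -0.07. The call for Mga held without lenvatinib replicate 1 and ended without any other single library (adjusted p from 0.0759 to 0.0916). Mlx went from 7.77 to 6.77 and did not pass (adjusted p = 0.168). Mycn, Mycl and Mxd3 were too low to be tested.

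Genes known to be induced by Myc outside ribosome assembly were often higher while Myc was lower. Of 30 such genes, 17 rose, or 56.7% against 10.4% of all genes tested, and none fell, against 8.21%. Their median change was 0.23. Limma-voom called 22 of the 30 higher, but it also called more genes higher in all, 1265 against 1038. Between 13 and 17 rose when a library was left out. Hspd1, a mitochondrial chaperonin, rose from 423 ± 5.35 to 552 ± 3.85 scaled FPKM (change 0.38, adjusted p = 1.03e-05 with limma). Eif5a, a translation factor, rose from 197 ± 4.13 to 249.97 ± 5.51 (change 0.34, adjusted p = 5.74e-05), and Ccnd2, a cyclin, from 22.3 ± 0.639 to 31.5 ± 0.416 (change 0.48, adjusted p = 0.000142). None of the 3 had overlapping groups. This list, too, was drawn up with results of these data known. Beside it, the sum of 13 markers of proliferating cells was 333 to 341 with lenvatinib against 280.1 to 283 with DMSO, with 2 of the 13 higher, Pcna and Mcm3, and its part in these results was not tested.

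Free ribosomal proteins that build up when assembly is disturbed bind Mdm2 and stabilise p53, so a short list of that pathway was read as well. Of 5 tested genes, Rpl5, a ribosomal protein that binds Mdm2, rose from 852 to 925 scaled FPKM (change 0.12, adjusted p = 0.0211 with limma). It was not called without lenvatinib replicates 1 (0.0881) and 2 (0.0734). Mdm2 fell from 18.0 to 15.4 (change -0.21, adjusted p = 0.0315), with a change of 0.022 under scaling to B cell markers. Leaving out any library but lenvatinib replicate 3 ended its call (adjusted p from 0.0715 to 0.0958). Trp53, which encodes p53, went from 34.4 to 39.3 and did not pass (adjusted p = 0.056, and 0.0158 without lenvatinib replicate 1).

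**Figure D4:**
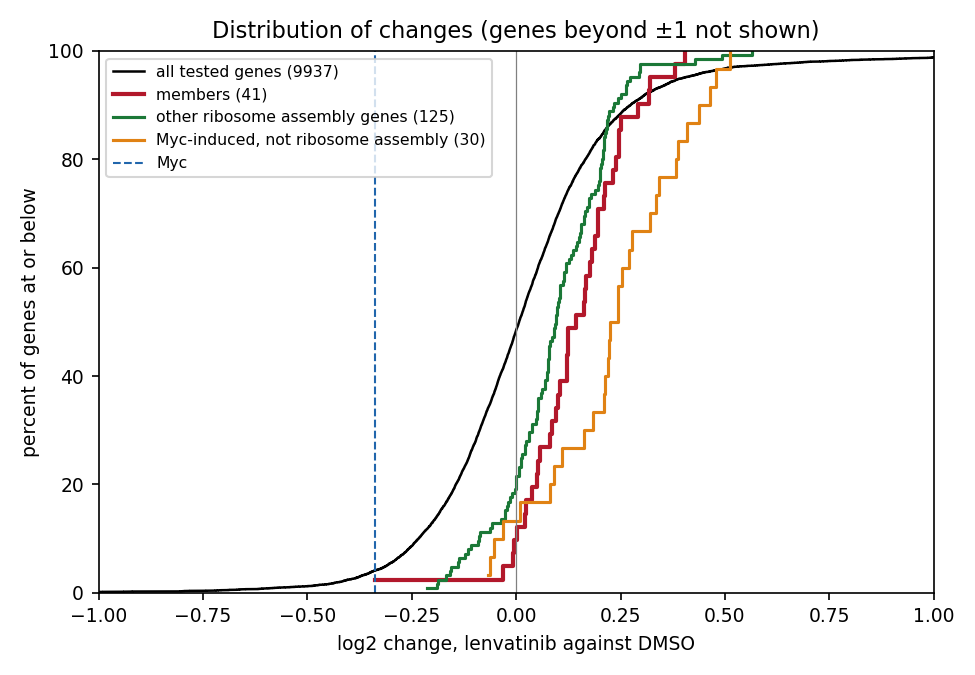
Percent of genes at or below each change (log2 scale, lenvatinib against DMSO) for all 9937 tested genes, the 41 members, 125 other ribosome assembly genes and 30 Myc-induced genes outside ribosome assembly, with Myc as a dashed line at -0.34. The members' curve crosses its median at 0.14, to the right of the all-gene median of 0.01 and of the 0.09 of the other assembly genes. It lies to the left of the median of the Myc-induced genes, 0.23.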

How the data were processed

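Total RNA of sorted colon B cells was made into sequencing libraries, 3 per group, per the labels. Reads were counted with HTSeq against build GRCm39, per the submitters' processing notes; the aligner, annotation and use of strand are not given in the sources used here, so reads of overlapping, antisense or near-identical genes could not be separated. The authors deposited FPKM values, which are not counts, for 20591 genes. No value column was left unused.

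FPKM were scaled by median-of-ratios factors (0.992 to 1.009), genes at 1 or more in at least 3 libraries were tested, and log2(scaled FPKM + 1) was fitted on treatment alone with limma 3.58.1 in R 4.3.3, with trend and robust moderation. Tests were two-sided. The fit was tested on simulated data. Whole reads were recovered from FPKM steps (tolerance 1e-05) and hold 99.7% of the library totals. Replicates of a group correlated at 0.993 to 0.994 and, on average over genes, differed by more than counting noise, so each was kept. That average does not hold for every gene, and Myc is an exception.

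The members and gene lists were chosen with earlier results of these data known. Library values are given for Myc and up to 15 further called members without overlap, by smallest p. They are also given for Polr1a and Gnl3, which were not called. From each other pathway list, up to 3 genes by smallest p have means, changes or adjusted p-values only. Alternatives were pseudocount, filter, scaling, moderation, a replicate block, a minimum change, library weights, limma-voom on recovered reads, and leaving out each library.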

Additional observations from a re-analysis of the deposited data

How the results depend on the processing

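Myc was lower in every alternative, with a change between -0.36 and -0.10. The number of members that rose, 17, was 9 without the filter on low values, 11 with libraries scaled to the sum of FPKM, 39 with scaling to B cell markers, 8 without trend and robust moderation, and 0 in a limma test against a minimum change of 0.2, where 3 had an unadjusted p under 0.05 and limma-voom without that minimum called 21. Leaving out each library gave 10 to 13. The median change of the members, 0.14, was 0.16 with FPKM as deposited, 0.12 with scaling to the sum of FPKM, 0.38 with B cell markers (0.16 above the median of all genes there), and 0.12 to 0.15 when a library was left out.

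Of the other ribosome assembly genes, 15 rose in the reported fit, against 7 without the filter, 107 with B cell markers, 8 without moderation, 2 against the minimum change, 27 with limma-voom, and 8 to 15 when a library was left out. The number that fell, 1, was 2 with the mean filter of 5, the sum of FPKM, quantile normalization and library weights, 4 with limma-voom, 0 with B cell markers (0 also at an unadjusted p under 0.05), 0 without moderation (2 unadjusted), 0 against the minimum change (0 unadjusted), and 0 to 2 when a library was left out. With B cell markers 4803 of all tested genes rose and 178 fell, against 1038 and 816, and Rrn3 (0.23), Gnl3 (0.24), Wdr75 (0.20), Mdm2 (0.022) and Ddx24 (0.084) turned to a positive change. The causes of these differences were not tested.

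With the replicate number as a block, 16 members rose, 11 other assembly genes rose, and Myc had an adjusted p of 0.000801 with limma. Deviations of libraries with the same number had correlations of -0.0067, 0.0065 and -0.0053, and 1 of 3 correlated best with its own number. Values this near 0 cannot show whether libraries of the same number were prepared or collected together. Depth limits most the members with the fewest reads, Wdr12 (542 to 733 per library) and Bysl (588 to 1099).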
